A study of Mus musculus with 4 samples.

Results

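CTCF binding was examined around Cdk8 and around the genes of the TFII-I family, Gtf2ird2, Gtf2i and Gtf2ird1, in WEHI-231 cells with and without a stable knockdown of TFII-I. Overlapping CTCF peaks of the 4 deposited lists (build mm9, overlap of 1 bp or more) were joined into regions. A region was taken where its centre lay on chromosome 5 between 146.9 and 147.3 Mb (the Cdk8 window, 400 kb) or between 134.5 and 135 Mb (the TFII-I family window, 500 kb). These windows held 9 and 21 regions, 30 of 29116 in the genome. The windows are set by position and not by a score or call in these lists. They were, however, chosen with earlier results of these data known. The regions are numbered below along the chromosome within each window.

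Cdk8 is the cyclin-dependent kinase of the Mediator kinase module, which joins the Mediator complex and tunes the start of transcription by RNA polymerase II. Gtf2i encodes TFII-I, a transcription factor that binds initiator and E box elements and, in B cells, is a substrate of Bruton's tyrosine kinase. Gtf2ird1 and Gtf2ird2 encode relatives that share its repeat domains, and the family lies together in the segment that corresponds to the human Williams-Beuren syndrome region. CTCF is a zinc finger protein that marks chromatin loop anchors, insulators and many promoters. The published work on these cells is recalled as describing the Cdk8 promoter as a site where CTCF occupancy falls when TFII-I is depleted. This is background that was not checked against the paper, which was not used here.

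WEHI-231 is a B cell lymphoma line of (BALB/c x NZB)F1 origin, and all groups were the same line in the same medium. The control group, labelled CT, and the TFII-I knockdown group had 2 libraries each. CTCF-bound DNA was isolated from sonicated nuclei with a Millipore antibody to CTCF. The labels give neither the vector carried by the control cells nor whether the replicates were separate cultures. The p-values therefore refer to these 4 libraries alone, and the spread between replicates may be technical. How far TFII-I was depleted was not analysed here. The control lists held 24467 and 23873 peaks (replicates 1 and 2) and the knockdown lists 19076 and 15309. Their median scores were 111 and 107.3 in the controls and 85.46 and 79.13 after knockdown. The knockdown lists were thus shorter, and their median scores were lower figures on scales that need not be the same. The number of reads behind each list is not known, and whether depth plays a part in this difference was not tested. Each peak carries a score given by the authors, which is never under 50 in these lists and is not on a common scale between lists. Levels are therefore also given as percentiles, the percentage of peaks of the same list that score no higher.

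The sequence before the start of each of the 4 genes is shown because the recalled and unchecked account of the study concerns a promoter. The 250 bases before the RefSeq start (build GRCm38.p6, on the gene's strand, plus for Cdk8 and Gtf2ird2 and minus for Gtf2i and Gtf2ird1) were searched on both strands for CCCTC and for a longer core pattern of 12 letters, both parts of the CTCF motif, for the E box CACGTG, and for GGATTA, a core bound by repeat domains of the TFII-I family. Capitals mark every match.
Cdk8: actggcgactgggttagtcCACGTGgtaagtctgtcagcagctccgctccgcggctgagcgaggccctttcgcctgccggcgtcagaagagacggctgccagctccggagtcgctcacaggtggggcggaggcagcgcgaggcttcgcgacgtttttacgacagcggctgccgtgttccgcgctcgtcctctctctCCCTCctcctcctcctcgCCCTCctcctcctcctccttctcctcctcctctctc
Gtf2i: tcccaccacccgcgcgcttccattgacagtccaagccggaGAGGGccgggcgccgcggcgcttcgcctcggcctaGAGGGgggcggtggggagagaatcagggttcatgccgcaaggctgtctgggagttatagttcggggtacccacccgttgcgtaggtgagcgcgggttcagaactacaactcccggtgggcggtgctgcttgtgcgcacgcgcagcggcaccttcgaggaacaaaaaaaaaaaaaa
Gtf2ird1: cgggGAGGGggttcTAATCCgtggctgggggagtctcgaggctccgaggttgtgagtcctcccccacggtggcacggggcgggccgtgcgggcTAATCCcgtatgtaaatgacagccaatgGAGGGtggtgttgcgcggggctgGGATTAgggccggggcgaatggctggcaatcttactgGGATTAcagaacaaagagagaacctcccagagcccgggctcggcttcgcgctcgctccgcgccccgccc
Gtf2ird2: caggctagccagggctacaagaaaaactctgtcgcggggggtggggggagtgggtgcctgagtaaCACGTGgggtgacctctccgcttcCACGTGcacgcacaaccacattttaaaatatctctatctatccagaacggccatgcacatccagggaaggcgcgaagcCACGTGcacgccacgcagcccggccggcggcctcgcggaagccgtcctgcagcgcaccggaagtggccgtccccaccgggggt
The promoters of the family differed in these letters. In the 250 bases before the start of Cdk8 there was 1 CACGTG, which began 231 bases before the start, and there were 2 matches to CCCTC, the nearer one 36 to 32 bases before it. Gtf2ird2 had 3 matches to CACGTG and none to CCCTC. Gtf2ird1 had 4 matches to GGATTA, 2 on each strand, and 2 to CCCTC, while Gtf2i had 2 matches to CCCTC alone. The longer CTCF core pattern was matched in none of the 4. Of 32851 RefSeq promoter segments of this length, 60.5% held CCCTC, 0.295% the longer CTCF pattern, 6.02% CACGTG and 6.25% GGATTA, so a match to CCCTC is common. All 4 promoters were rich in CpG, with 22 to 25 CpG against a median of 6 over all segments. These letters describe the reference sequence. Neither an mm9 genome nor an mm9 annotation was used here, so no CTCF region could be placed on or off a promoter, and the regions are given by their mm9 position only.

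Around Cdk8, most CTCF regions were weak in the controls, and the knockdown lists held fewer of them. The Cdk8 window held 7 and 8 peaks in control replicates 1 and 2, a mean of 7.5 ± 0.707 (SD, n = 2). It held 5 and 4 peaks in knockdown replicates 1 and 2, a mean of 4.5 ± 0.707 (SD, n = 2), or 60% of the control mean. The groups did not overlap, but the two-sided exact permutation test gave p = 0.333, the smallest value that 2 libraries against 2 allow. Whole lists were shorter too, with a knockdown mean of 71.1% of the control mean. With each list limited to its 15309 strongest peaks, the order turned, with 3 peaks in each control and 4 in each knockdown library. In each control 2 peaks scored above the median of their list, as did 4 of the 5 peaks of knockdown replicate 1 and 1 of the 4 of replicate 2.

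Of the 9 regions of the Cdk8 window, 7 were called in both controls. Among these 7, 3 were called in both knockdown libraries, where 56.5% of all regions called in both controls were. A further 2 were called in 1 knockdown library (28.7% over the genome) and 2 in neither (14.8% over the genome). The last 2 regions were called in a single library each. Regions of the same control strength decile, taken from the mean percentile in both controls, would give 1.64 regions without a knockdown call among these 7. The 2 observed are thus near the count for regions of the same control strength over the genome. Those shares are read from the same knockdown lists, so they do not separate control strength from knockdown or list length, which was not tested.

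The highest score of the Cdk8 window belonged to a site called in all 4 libraries, while the site next to it was called in the controls alone. Cdk8 region 3, at chr5:147072513-147073121, scored 225.74 in control replicate 1, 98.35 in control replicate 2, 336.43 in knockdown replicate 1 and 63.4 in knockdown replicate 2. Both first replicates were high and both second replicates low, so the groups overlapped, and in both second replicates region 5 was the highest of the window instead. In percentiles it stood at 92.4 and 43.4 in the controls and at 99.2 and 25.4 in the knockdown libraries, a difference of -5.58 points (two-sided exact permutation p = 1). Cdk8 region 2, at chr5:147071557-147072134, lies 378 bp before region 3. It scored 72.52 and 83.3 in the controls, at percentiles 22.1 and 31.9, and had no call in either knockdown library. The nearest knockdown peaks were those of region 3, which began 417 and 428 bp beyond its end. Pairs of regions under 1 kb apart made up 3.66% of neighbouring regions in the genome. If peaks within 500 bp are merged, regions 2 and 3 become a single region called in all 4 libraries, and 1 region without a knockdown call is left in the window.

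The other region without a knockdown call was weak. Cdk8 region 1, at chr5:146984267-146984712, scored 53.83 and 70.38 in control replicates 1 and 2, at percentiles 4.17 and 21.3, and the nearest knockdown calls were 87839 and 87850 bp away. It is in the weakest decile of control strength, where 48.2% of regions had no knockdown call. Region 2 is in the next decile, where that share was 32.5%. Neither region reached the median score of a control list.

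In the other regions around Cdk8 that were called in all 4 libraries, the groups overlapped in region 5 and did not in region 9. Cdk8 region 5, at chr5:147141912-147142566, was steady in the controls, with scores of 135.46 and 134.55, and scored 92.17 and 140.56 in the knockdown libraries. Its percentiles were 64.2 and 66.4 against 57.3 and 90.8, with both control values between those of the knockdown libraries. Cdk8 region 9, at chr5:147291041-147291517, scored 101.21 and 75.76 in the controls and 61.26 and 56.6 after knockdown. Its knockdown percentiles of 18.8 and 12.3 lay below both control percentiles of 43.7 and 25.8. This difference of -19.2 points had a two-sided exact permutation p of 0.333, the smallest possible.

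Regions 4 and 8 of this window were missed in knockdown replicate 2 alone. Cdk8 region 4, at chr5:147114916-147115541, scored 91.38 and 63 in the controls and 87.83 in knockdown replicate 1. Cdk8 region 8, at chr5:147231548-147232032, scored 72.4 and 124.96 in the controls and 127.84 in knockdown replicate 1, where it stood at percentile 82.4. In knockdown replicate 1 each thus ranked above both its control percentiles. Region 6, at chr5:147191042-147191311, was called in knockdown replicate 2 alone with a score of 61.79, and region 7, at chr5:147193909-147194334, in control replicate 2 alone with a score of 56.66. They lie 2597 bp apart, and stood at percentiles 22.3 and 7.57 of their lists.

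**Figure D1:**
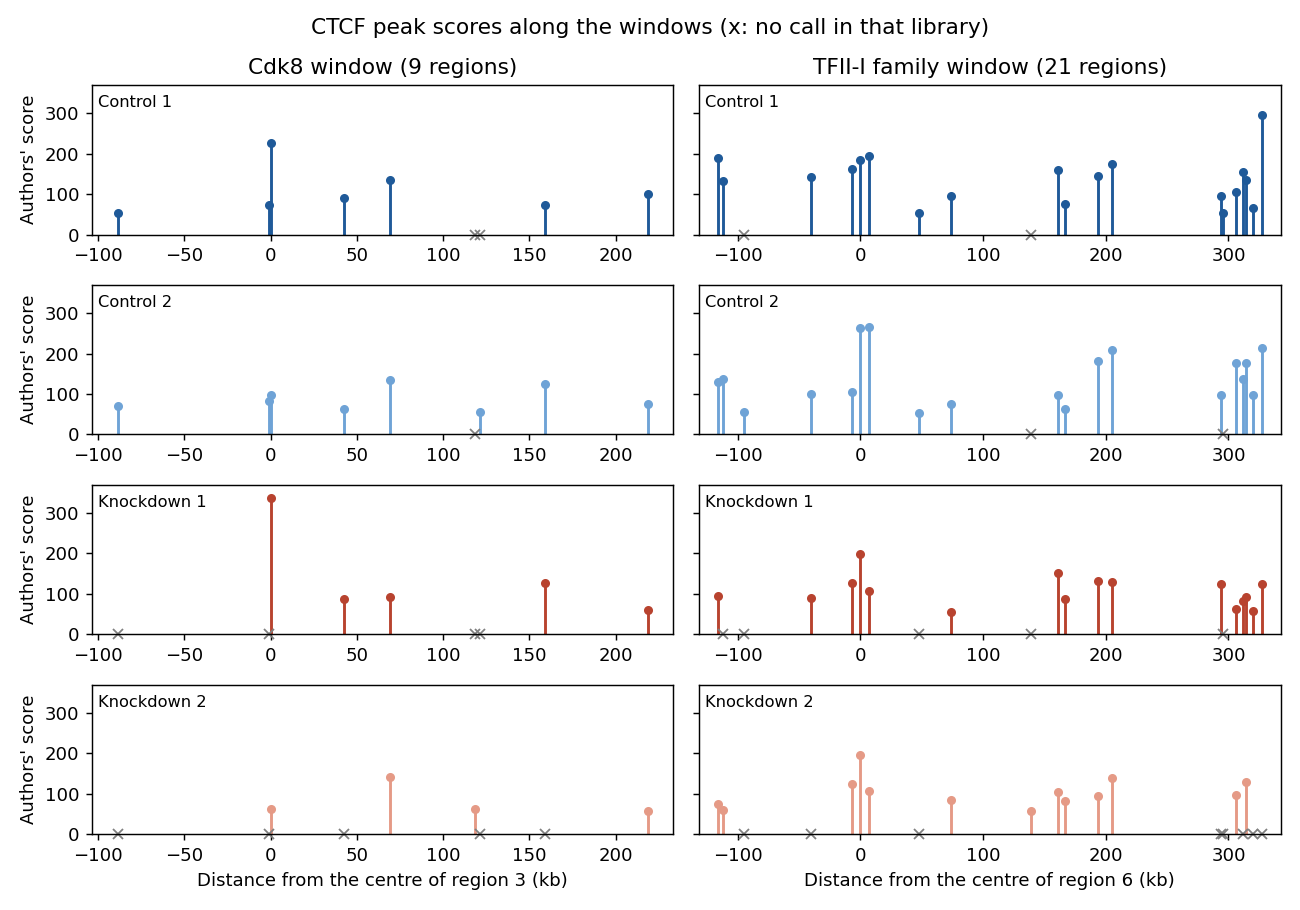
The authors' score of each CTCF region (vertical axis) against its distance in kb from the centre of region 3 of the Cdk8 window (left) or of region 6 of the TFII-I family window (right), with a row for each library and a cross where a library had no call. The leading site of the Cdk8 window is present in all 4 rows, at 225.74 and 98.35 in the controls and 336.43 and 63.4 after knockdown, while the site 378 bp before it is a cross in both knockdown rows; scores of different libraries are not on a common scale.

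The TFII-I family genes lay in a stretch dense in CTCF sites, and 11 of the 18 called in both controls (61.1%) were called in both knockdown libraries, near the 56.5% over the genome. In the order of the RefSeq gene table, Gtf2ird2 is followed by Ncf1, a subunit gene of the phagocyte NADPH oxidase, then by Gtf2i, Gtf2ird1 and Clip2. The window held 21 regions, and 97.3% of 5283 windows of 500 kb tiled over chromosomes 1 to 19 and X held fewer; their median was 4. The Cdk8 window, with 9 regions, held more than 81.4% of 6604 windows of 400 kb, whose median was 3. Both sets of tiled windows began at the start of each chromosome and were not matched for gene content or for sequence that reads can map to. Their lower quartiles were 1 region at 500 kb and 0 regions at 400 kb. The median gap between neighbouring regions was 10268 bp in the family window, 39504 bp in the Cdk8 window and 28772 bp over the genome.

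Control replicates 1 and 2 each had 19 peaks in the family window, a mean of 19 ± 0 (SD, n = 2). Knockdown replicates 1 and 2 had 16 and 13, a mean of 14.5 ± 2.12 (SD, n = 2), or 76.3% of the control mean (two-sided exact permutation p = 0.333). With lists of equal length the numbers were 15 in each control and 14 and 13 in the knockdown libraries. The median score splits each list evenly. In control replicate 1, 12 of 19 family peaks scored above it, and in control replicate 2 only 10 of 19, close to an even split. After knockdown it was 12 of 16 (replicate 1) and 10 of 13 (replicate 2). The median percentile in this window was 67.1 and 63.7 in the controls and 64.9 and 69.5 after knockdown. Whether these values differ from those of whole lists was not tested.

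Of the 18 family regions called in both controls, 11 were called in both knockdown libraries, 6 in 1 of them and 1 in neither. Over the genome these shares were 56.5%, 28.7% and 14.8%. Regions of the same control strength would give 11.4 called in both knockdown libraries and 2.14 called in neither. The region without a knockdown call, region 8 at chr5:134703298-134703936, was the weakest of the 18, with scores of 52.49 and 52.94 and percentiles of 2.79 and 3.37. None of the 13 family regions in the upper 5 deciles of control strength was without a knockdown call, where 3.02% of all regions in these deciles were, and 9 of the 13 were called in both, where 78% of all were. No region of either window was called in both knockdown libraries and no control, a class that holds 0.488% of all regions.

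**Figure D2:**
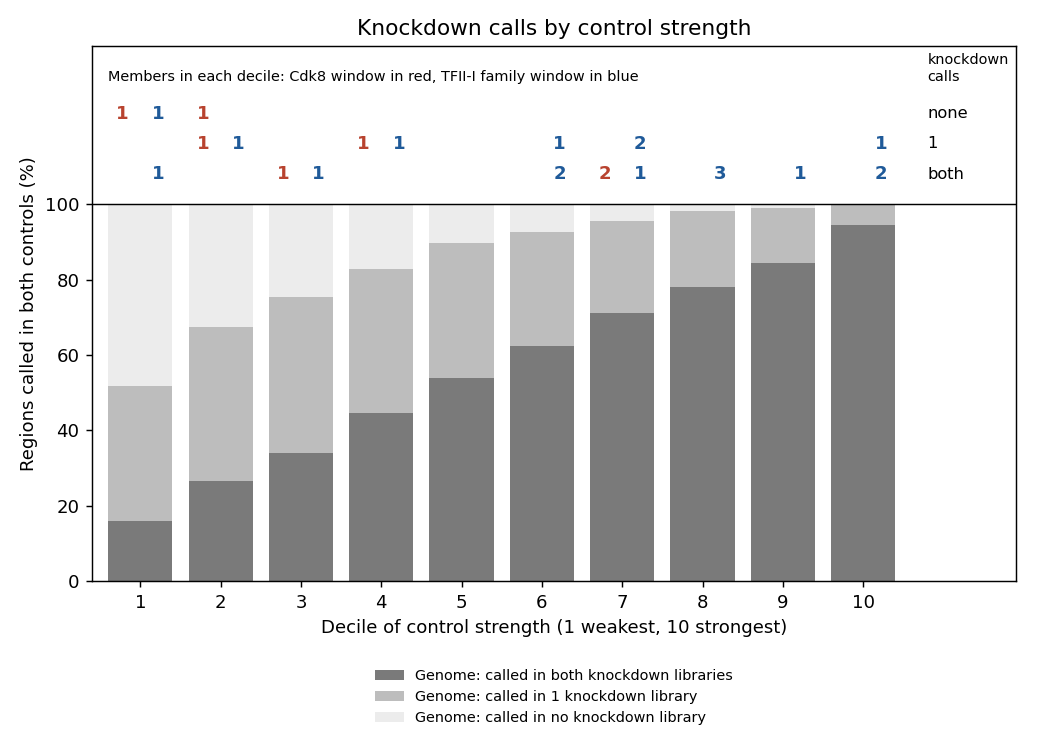
Bars give the percentage of the regions called in both controls that were called in both, 1 or neither knockdown library, by decile of control strength (1 weakest, 10 strongest), over the genome. The digits above the bars count the members of the Cdk8 window (red) and of the TFII-I family window (blue) in each class; the 3 members without a knockdown call are in deciles 1 and 2, where 48.2% and 32.5% of all regions had none.

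A pair of strong neighbouring family sites was close in score in each control list and further apart in the knockdown lists. Family region 6, at chr5:134655601-134656281, scored 185.01 and 264.35 in the controls and 199.93 and 195.37 after knockdown. Its percentiles of 84 and 96.4 in the controls and 96.6 and 97.4 after knockdown put it high in each list, and the difference was 6.83 points, or 0.651 without control replicate 1. Family region 7, at chr5:134663085-134663759, lies 6803 bp after it and scored alike in the controls, 193.62 and 265.71, but 106.95 and 106.4 in the knockdown libraries. Its knockdown percentiles of 69.8 and 76 were both below its control percentiles of 86.3 and 96.4, a difference of -18.4 points. Against the mean of regions of the same control rank, the difference of region 7 was -0.235 points and that of region 6 was 25 points, so the lower standing of region 7 was about that of other regions as strong in the controls. Each difference had an exact permutation p of 0.333, the smallest possible, and the contrast of the pair was noticed after the values were seen and was not tested.

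Other family regions had differences of either sign, none of which could pass a two-sided exact permutation test with 2 libraries a group. Family region 1, at chr5:134539393-134540035, scored 189.35 and 129.4 in the controls and 94.97 and 75.87 after knockdown, and its percentile differed by -21.7 points, with both knockdown values below both controls, or -7.88 against regions of the same control rank. Family region 12, at chr5:134822785-134823390, scored 75.25 and 63.85 in the controls and 87 and 82.86 after knockdown. It was weak in both controls, at percentiles 24.4 and 15.2, and of middle rank in both knockdown lists, at 51.7 and 55.3, a difference of 33.7 points, or 16 against regions of the same control rank. Of regions in its control decile, the weakest, 15.8% were called in all 4 libraries. Family region 5, at chr5:134648888-134649558, scored 161.23 and 105.72 in the controls and 126.19 and 124.11 after knockdown, with a difference of 21.1 points, or 7.51 without control replicate 2, and no overlap of the percentiles.

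For the other 6 family regions called in all 4 libraries the percentiles of the groups overlapped. Family region 14, at chr5:134860818-134861534, was among the steadiest, at percentiles 80.6 and 91.1 in the controls and 83.1 and 90.6 after knockdown. Family region 11, at chr5:134817026-134817735, stood at 75.7 and 42.7 in the controls and 90.5 and 74.4 after knockdown, a difference of 23.3 points, or 6.8 without control replicate 2. Family region 13, at chr5:134849069-134850322, was the widest member, at 1254 bp, and differed by -1.23 points. The differences of regions 9, 17 and 19 were -0.123, -19.3 and -1.5 points.

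Across both windows, 14 of the 30 regions were called in all 4 libraries, against 40.3% over the genome. Their knockdown minus control percentile ran from -21.7 to 33.7 points with a median of -0.675, against a median of -7.26 over all 11741 such regions. The members' median lay above that of all such regions, which is given as a description; under other rankings both windows' medians changed sign. Both knockdown percentiles were above both control percentiles in 3 of the 14, against 11.1% over the genome, and below them in 3 of the 14, against 28.9%. None of these 14 differences could pass a two-sided exact permutation test at this size. The centres of the peaks in both groups lay 5.5 to 193.75 bp apart and under 100 bp in 12 of the 14.

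**Figure D3:**
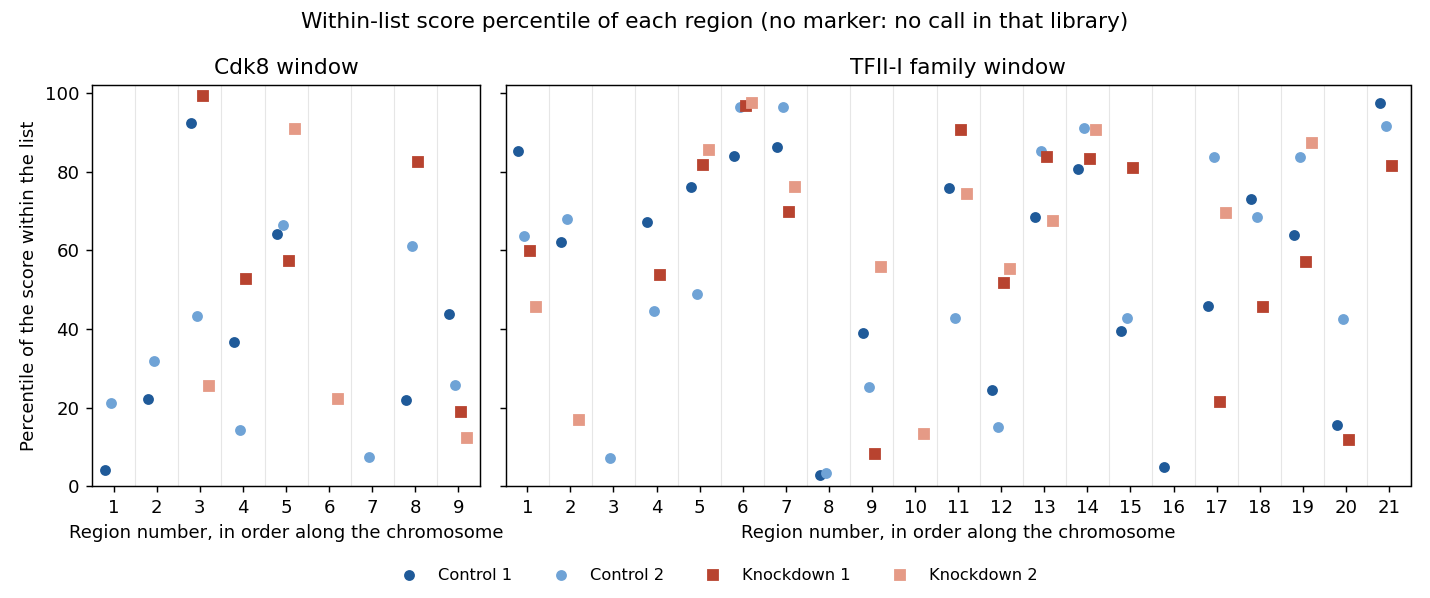
The percentile of the score within its own list (vertical axis) for each region, numbered along the chromosome, in the Cdk8 window (left) and the TFII-I family window (right); circles are control and squares knockdown libraries, and a missing marker means no call. In Cdk8 region 3 the first replicates of both groups, at 92.4 and 99.2, lie above the second replicates, at 43.4 and 25.4, whereas family regions 7 and 12 have both squares below or above both circles.

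Calls missing from a single knockdown library came mostly from the shorter list. Of the 8 members called in both controls and 1 knockdown library, 7 were called in knockdown replicate 1 and 1 in replicate 2; over the genome these counts were 4378 and 1585 of 5963. The strongest of them was family region 21, at chr5:134983046-134983643. It scored 296.28 and 212.82 in the controls, at percentiles 97.3 and 91.6, and 125.49 in knockdown replicate 1, and had no call in replicate 2, whose nearest peak was 12521 bp away. In its decile of control strength 5.34% of regions were called in 1 knockdown library and 94.4% in both. Family region 2, at chr5:134543648-134544284, was the member missed in knockdown replicate 1. It scored 131.68 and 137.49 in the controls and 59.11 in knockdown replicate 2.

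Of the 6 family regions called in both controls that knockdown replicate 2 lacked, 4 lay at the far end of the window. Regions 15 to 21, which follow the widest gap of the window (88126 bp) and span 34 kb, included 6 called in both controls. Knockdown replicate 1 had a call in 6 of these and knockdown replicate 2 in 2, regions 17 and 19. Among the 12 such regions before the gap, each knockdown library had a call in 10. Over the genome 77.6% of regions called in both controls had a call in knockdown replicate 1 and 64.1% in replicate 2. Among the regions missed in replicate 2 after the gap, region 15, at chr5:134949661-134950352, scored 95.17 and 97.5 in the controls and 124.68 in knockdown replicate 1, and region 18, at chr5:134967509-134968029, scored 154.57, 138.3 and 81.38 in the same order. Region 20, at chr5:134975878-134976321, scored 65.31, 97.16 and 57. This division was chosen after the calls were seen and was not tested, and it rests on 1 library.

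The members not yet described were called in few libraries or were of middle strength. Family region 4, at chr5:134615331-134615839, scored 141.13 and 100.03 in the controls and 88.77 in knockdown replicate 1. Family regions 3 and 16 were called in 1 control alone, with scores of 56.4 and 54.42, and region 10 in knockdown replicate 2 alone, with a score of 57.01. Over the genome 14.7% of regions were called in 1 control alone and 5.35% in 1 knockdown library alone. The windows' edges cut through no peak. Before Cdk8 region 1 no list had a call for 916 kb, and gaps at least that wide made up 1.31% of the 29094 gaps between neighbouring regions of the genome. At the other edge, the last region inside the Cdk8 window (region 9) scored 101.21 and 75.76 in the controls, and the first one outside it, at chr5:147300600-147301061, scored 112.26 and 69.94 in the controls and 84.3 and 105.35 after knockdown. At the near edge of the family window, the region just outside, at chr5:134482475-134483080, was called in all 4 libraries with scores of 206.33 and 170.63 in the controls and 112.13 and 131.17 after knockdown.

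Set beside that recalled and unchecked account of the Cdk8 promoter, the Cdk8 window held 7 regions called in both controls. Of these, 2 had no knockdown call (14.8% over the genome), both of low control score. A further 2 were called in 1 knockdown library (28.7% over the genome) and 3 in both (56.5%). Regions of the same control strength would give 1.64 without a knockdown call. The 2 became 1 when merging within 500 bp. At equal list length the number was 0 because the cut removed both regions from both control lists. That 0 therefore says nothing about calls after knockdown. Which of the 9 regions, if any, is the promoter site could not be told without an mm9 annotation. The loss or keeping of CTCF at that promoter is not read from these data.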

How the data were processed

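CTCF ChIP-seq peak lists of 4 libraries were used, 2 control and 2 TFII-I knockdown, grouped by their titles. Per the submitters' processing notes, BWA, HOMER and the build mm9 were used, with no versions or roles. Per the file contents, the peak names carry the word MACS; the caller's version, its settings and any input library: not given in the sources used here. Each library has its own list, which was taken to mean calling per library. The deposited score is the authors' own value per peak; the lists hold no counts, and depth is unknown. Starts and ends are printed as deposited.

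From these, peaks were ranked within a list, merged at 1 bp overlap, and classed by the libraries with a call; of several peaks of a library in a region, the highest-scoring one stands for it. Deciles of control strength are of the mean percentile in both controls. Groups are given as mean and SD (n = 2) and compared by two-sided exact permutation. All regions of both windows are accounted for. Members, lists and tests were chosen with earlier results of these data known. The planned counts at promoters of the Mediator kinase module and of CTCF and cohesin genes need an mm9 annotation and were not made. Alternatives were merging within 500 bp, reciprocal overlap of 50%, a score of at least 100, lists of equal length, other window edges, other rankings, leaving out each library, and a replicate block. Merging was tested on simulated data: after 205 of the 24467 peaks in copies of the first control list were deleted from both simulated knockdown lists, all 205 were found as missing there. The copies differed by small shifts only, so this outcome was fixed by the setting. It checks the code and not how real peaks that shift further or split are merged. Promoter sequences are from RefSeq (GRCm38.p6), and all 4 genes matched by symbol. Python 3.11.15, numpy 2.4.6, pandas 2.3.3, scipy 1.17.1 and matplotlib 3.10.9 were used.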

Additional observations from a re-analysis of the deposited data

How the results depend on the processing

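Peak numbers per library limit every statement here: 2 libraries a group allow no p under 0.333, and the depth behind the lists is unknown. Both windows kept fewer knockdown than control peaks under each alternative except 1. Whole knockdown lists were shorter (71.1% of the control mean), and only equal list length takes this into account, so the other alternatives are a weak check of the sign. At equal list length the Cdk8 window had 1 peak more in the knockdown mean. There the cut took the controls from 7 and 8 peaks to 3 each, and the knockdown libraries from 5 and 4 to 4 each. The family window then had 15 peaks in each control and 14 and 13 in the knockdown libraries. Without 1 library, the Cdk8 difference lay between -3.5 and -2.5 peaks and the family difference between -6 and -3.

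Regions called in every library numbered 3 around Cdk8 and 11 in the family window; with a score of at least 100 they numbered 0 and 4, and without 1 library 3 to 5 and 11 to 16, by construction of fewer peaks or fewer calls required. Regions called in both controls and no knockdown library numbered 2 around Cdk8, but 1 when merging within 500 bp, 0 with a score of at least 100 and 0 at equal list length, and 2 to 4 without 1 library (4 without knockdown replicate 1). In the family window such regions numbered 1, but 2 at a reciprocal overlap of 50% and 5 with a score of at least 100. At equal length they numbered 0, where the cut removed family region 8 from both control lists. Without 1 library they numbered 2 to 6 (6 without knockdown replicate 1, 2 without each of the others).

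The median percentile difference changed sign. Around Cdk8 it was -5.58 points, 6.21 when ranked among regions called in all 4 libraries, 6.07 against regions of the same control rank, and -28.1 to 7.66 without 1 library (above 0 only without control replicate 1). In the family window it was -0.123, then 7.68 and 13.5, and -4.25 to 7.24 without 1 library (above 0 without control replicate 2 or knockdown replicate 1). Of single regions, the sign changed when ranked among regions called in all 4 libraries in Cdk8 region 3 (6.21) and family regions 9 (13.9), 13 (7.68) and 19 (7.51), and against the same control rank in Cdk8 region 3 (6.07) and family regions 13 (13.5) and 19 (12.3). Without 1 library the range crossed 0 in Cdk8 regions 3 (-42.5 to 31.3) and 5 (-7.95 to 25.5) and in family regions 9 (-23.9 to 23.7), 13 (-9.65 to 7.19), 14 (-4.25 to 6.32), 17 (-43.3 to 4.71) and 19 (-16.6 to 13.6). The cause was not tested. Cdk8 region 9 and family regions 1, 5, 6, 7, 11 and 12 kept their sign under each of these alternatives but not their size: the value nearest 0 was -4.67 in Cdk8 region 9 (ranked among regions called in all 4 libraries), -7.88 in family region 1 and -0.235 in region 7 (both against the same control rank), 0.651 in region 6 (without control replicate 1), 7.51 in region 5 and 6.8 in region 11 (both without control replicate 2), and 16 in region 12 (against the same control rank).

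With the replicate number as a block, the peak differences were -2 and -4 around Cdk8 (mean -3) and -3 and -6 in the family window (mean -4.5), with an exact sign-flip p of 0.5, the smallest for 2 pairs. The labels do not say that a number marks a shared batch, so the pairing was not used in the main comparisons. The deviations of same-numbered libraries correlated at 0.0126 over 11741 regions called in all 4 libraries. This value cannot show whether single regions or list lengths shared a batch.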
